A study of Mus musculus with 3 samples.

Results

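The genes described here encode enzymes, a transporter and regulators that handle arginine and the polyamines made from it. The set names 10: the arginine transporter Slc7a2, the nitric oxide synthase Nos2, the argininosuccinate synthase Ass1, the arginases Arg1 and Arg2, the ornithine decarboxylase Odc1, its inhibitor Oaz1, the polyamine synthases Srm and Sms and the acetyltransferase Sat1. Of these, 9 had at least 1 probe set that the platform annotation gives to that gene alone, among 18193 such genes on the array, and these 9 were covered by 15 probe sets. All 3 probe sets of Sms are also assigned to a pseudogene, so no value is given for Sms. A further probe set each of Ass1 and Oaz1 was left out for the same reason.

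Measurements came from mouse BMDCs, dendritic cells raised in culture from bone marrow, which take up and present antigen to T cells. They had been kept for 10 days in 10 ng/ml of the growth factor GM-CSF. The 3 conditions were BMDC(-), untreated cells; BMDC(+LPS), cells given 10 ng/ml of Escherichia coli lipopolysaccharide, the cell wall component that activates Tlr4; and BMDC(+LPS+cAMP), cells given the same LPS with 100 µM 8-Br-cAMP, which enters cells and acts in place of cyclic AMP. Both stimulations lasted 3 h, and the labels name no strain, sex, age or number of mice. Each condition had 1 array, so no value below has a replicate, no test was possible, and every difference is between single cultures. No array held 8-Br-cAMP without LPS.

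Arginine enters cells mainly through cationic amino acid transporters. Nitric oxide synthase turns it into nitric oxide and citrulline, and citrulline can be built back into arginine by Ass1 and Asl. Arginase splits arginine into urea and ornithine. Odc1 turns ornithine into putrescine, the first polyamine, which Srm and Sms extend to spermidine and spermine. Oaz1, called antizyme, binds Odc1 and sends it to the proteasome when polyamines are abundant, and Sat1 acetylates polyamines for breakdown or export. In macrophages and dendritic cells Nos2 is a hallmark of inflammatory activation and Arg1 of alternative activation, and both enzymes draw on the same arginine.

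Values are scaled signals, the deposited intensities multiplied per array so that the trimmed means were equal, and differences are on the log2 scale. Signals under 32.5, the floor set at the highest array median, were counted as that value, so a difference from the floor is a lower bound. A gene with several probe sets is represented by its brightest. The scatter between probe sets of 1 gene gave an error of 0.49 log2 units for LPS against unstimulated, 0.53 for LPS+8-Br-cAMP against LPS and 0.62 for LPS+8-Br-cAMP against unstimulated. It describes agreement within these arrays and not the spread between cultures. Genes were counted as higher or lower from 2-fold.

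The transporter and the inducible synthase were the 2 genes past 2-fold with LPS alone. Slc7a2, the transporter known as CAT2, gave 896 in scaled signal without stimulation, 5948 with LPS and 6348 when 8-Br-cAMP was added. Both stimulated arrays were far above the unstimulated one and close to each other. The log2 difference was 2.73 (6.64-fold) with LPS, a value that 158 of 12283 measured genes reached or passed, and 0.09 between the stimulated arrays (-0.72 as deposited). The other 3 probe sets of Slc7a2 were higher with LPS by 2.64, 4.01 and 4.11, so the gene's difference ranged from 2.64 to 4.11 by probe set. With 8-Br-cAMP the same 3 lay slightly below LPS alone, at -0.33, -0.19 and -0.62, the last past the error of 1 probe set.

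Nos2 read 3.89 unstimulated, far under the floor, 228 with LPS and 350 when 8-Br-cAMP was added. It was above the floor on the stimulated arrays and not on the unstimulated one. The difference with LPS was at least 2.81 log2 units (at least 7.01-fold), which 144 of 12283 genes reached or passed. The bound moved with the floor, from 1.06 with the floor at the 75th percentile to 4.53 at the 25th. The further difference with 8-Br-cAMP was 0.62 on scaled signals, under 2-fold and a little over the error of 1 probe set, and -0.19 on the signals as deposited. Nos2 had 1 probe set, so no second reading of it exists here.

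Ass1, which starts the rebuilding of arginine from citrulline, read 68.8, 89.4 and 93.9 on the unstimulated, LPS and LPS+8-Br-cAMP arrays. All 3 readings were low and close together, and both steps, 0.38 and 0.07, were under the error of 1 probe set (the second was -0.74 as deposited). This rests on a dim probe set, since the other one assigned to Ass1 is shared with a pseudogene.

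**Figure D1:**
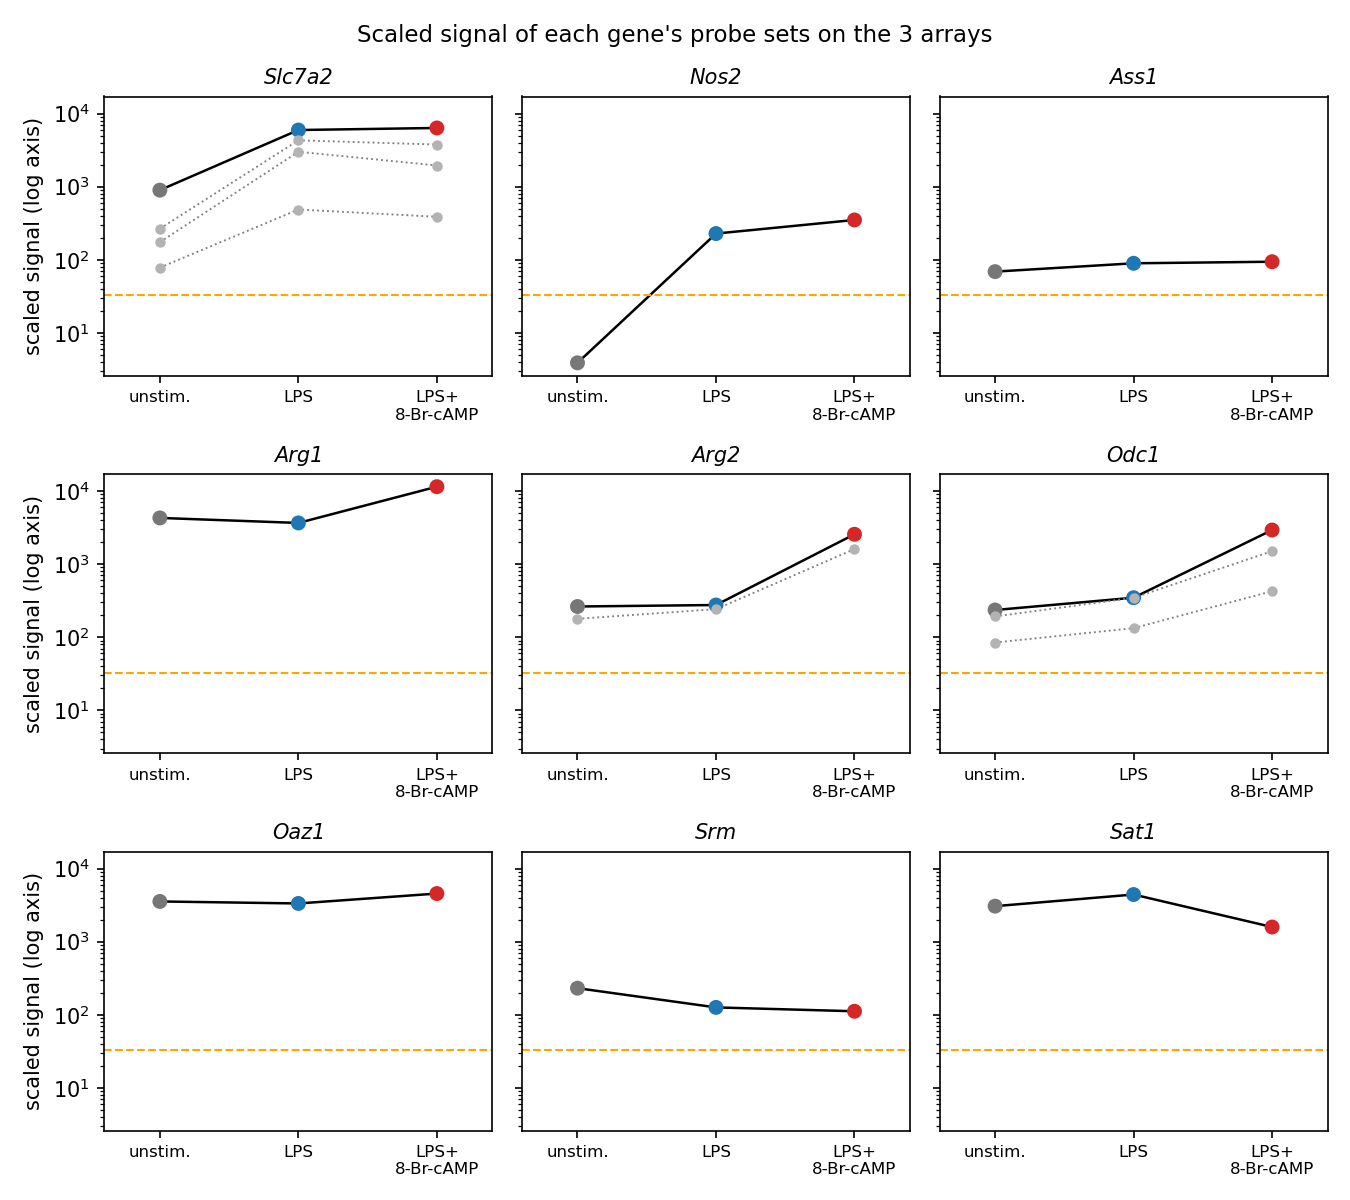
Scaled signal (log axis) of the 15 probe sets of 9 genes on the unstimulated, LPS and LPS+8-Br-cAMP arrays, 1 array each; large coloured points joined by a solid line are the brightest probe set of a gene, small grey points its other probe sets, and the dashed line is the floor at 32.5. Slc7a2 and Nos2 step up with LPS, Arg1, Arg2 and Odc1 step up with 8-Br-cAMP, and Sat1 steps down.

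The arginases were close to their unstimulated levels with LPS and higher with 8-Br-cAMP. Arg1, the cytosolic enzyme, gave 4287 in scaled signal without stimulation, 3660 with LPS and 11469 when 8-Br-cAMP was added. It was bright on every array, and the 8-Br-cAMP array was the highest. Its difference was -0.23 with LPS, under the error of 1 probe set, and 1.65 (3.13-fold) between LPS+8-Br-cAMP and LPS, which 165 of 12572 measured genes reached or passed. The size depended on the scaling of the dimmer 8-Br-cAMP array. Deposited signals of Arg1 were 5616, 3938 and 7042 in the same order, a difference of 0.84 between the stimulated arrays, under 2-fold, and the other scalings gave 1.28 to 1.65.

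Arg2, the mitochondrial arginase, read 263 unstimulated, 276 with LPS and 2562 with LPS and 8-Br-cAMP together. The first 2 arrays were level, at 0.07 log2 units apart, and the third stood well above both. The difference between the stimulated arrays was 3.21 (9.28-fold), and 13 of 12572 genes, Arg2 among them, were as high or higher. The second probe set of Arg2 read 179, 242 and 1607, a difference of 2.73. On the signals as deposited Arg2 still differed by 2.41, at 297 with LPS against 1573 with 8-Br-cAMP.

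The first step of polyamine synthesis went with Arg2. Odc1 gave 236 in scaled signal without stimulation, 347 with LPS and 2930 when 8-Br-cAMP was added. LPS alone gave 0.56 log2 units, just over the error of 1 probe set, and 8-Br-cAMP a further 3.08 (8.43-fold), which 17 of 12572 genes reached or passed. All 3 probe sets of Odc1 went the same way but by different amounts: the other 2 were higher with 8-Br-cAMP than with LPS by 2.12 and 1.68. The mean of the probe sets and every scaling tried kept Odc1 at least 2.27 log2 units higher.

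Oaz1, the antizyme that opposes Odc1, read 3545, 3328 and 4547 on the unstimulated, LPS and LPS+8-Br-cAMP arrays. The readings were close, with differences of -0.09 with LPS and 0.45 with 8-Br-cAMP, both under the error of 1 probe set. The second changed sign, to -0.36, on the signals as deposited. Transcript level is only part of the control of Oaz1, whose translation is known to depend on polyamines.

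Promoter sequences from RefSeq (GRCm38.p6) were matched for 5 of the 10 genes: Odc1, Oaz1, Sat1, Ass1 and Sms. The 250 bases before the annotated start are shown for Odc1, which was higher with 8-Br-cAMP, for its inhibitor Oaz1, which differed little, and for Sat1, which was lower. The windows are chr12:17544623-17544872 on the + strand for Odc1, chr10:80826406-80826655 on the + strand for Oaz1 and chrX:155216450-155216699 on the - strand for Sat1. Capitals mark TGACG on the printed strand, the core of the palindromic cAMP response element TGACGTCA bound by CREB.
Odc1: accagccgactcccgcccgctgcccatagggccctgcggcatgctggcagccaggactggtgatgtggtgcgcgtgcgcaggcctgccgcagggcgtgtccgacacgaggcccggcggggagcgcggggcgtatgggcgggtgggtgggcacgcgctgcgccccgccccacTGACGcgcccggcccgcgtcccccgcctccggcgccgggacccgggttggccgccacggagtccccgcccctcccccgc
Oaz1: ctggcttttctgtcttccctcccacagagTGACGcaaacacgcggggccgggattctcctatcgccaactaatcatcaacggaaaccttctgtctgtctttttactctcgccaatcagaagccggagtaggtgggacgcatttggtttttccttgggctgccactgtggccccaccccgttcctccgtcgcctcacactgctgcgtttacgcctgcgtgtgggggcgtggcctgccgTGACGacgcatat
Sat1: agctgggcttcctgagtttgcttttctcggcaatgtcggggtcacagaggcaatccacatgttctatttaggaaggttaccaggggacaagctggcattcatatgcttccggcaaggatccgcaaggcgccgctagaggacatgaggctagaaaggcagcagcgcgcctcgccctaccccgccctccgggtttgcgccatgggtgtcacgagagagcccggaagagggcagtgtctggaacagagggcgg
The Odc1 window holds TGACG once, 79 to 75 bases before the start, and the Oaz1 window 2 times, at 221 to 217 and at 13 to 9 bases before it. Neither TGACG nor its reverse complement was found in the Sat1 window, and the letters TGACGTCA were found in none of the windows of the 5 genes. Over all 32851 windows of this length in the table, searched on both strands, 17.8% hold TGACG and 1.55% hold TGACGTCA, which contains TGACG on both strands. Odc1 and Oaz1 thus share this core and differed in their readings. A kappa B type sequence lies in the Oaz1 window and in 1.01% of all windows. CACGTG, the E-box, lies in the Ass1 window and in 1 of the Sms windows, and in 6.02% of all. A sequence of the interferon-stimulated response element type and the TATA box TATAAA were not found in these windows, against 2.98% and 12.4% of all. A match of letters is no evidence of binding.

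Srm, spermidine synthase and the next step after Odc1, read 231 unstimulated, 126 with LPS and 112 with LPS and 8-Br-cAMP together. The unstimulated array was the highest and the stimulated ones were close. Srm differed by -0.87 with LPS, under 2-fold (-1.16 as deposited), and by -0.18 with 8-Br-cAMP against LPS. Against unstimulated cells the LPS+8-Br-cAMP array was 2.07-fold lower for Srm, from -2.14 to -0.72 log2 units over the scalings, so its place past 2-fold was not stable.

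Sat1, the acetyltransferase that starts polyamine breakdown, was the 1 gene of the set lower with 8-Br-cAMP. It gave 3057 without stimulation, 4410 with LPS and 1585 when 8-Br-cAMP was added. LPS was the highest array and 8-Br-cAMP the lowest. The difference was 0.53 with LPS, about the error of 1 probe set, and -1.48 (2.78-fold lower) with 8-Br-cAMP, and 217 of 12572 genes were as low or lower. On other scalings Sat1 lay between -2.29 and -1.48. Sat1 is encoded on the X chromosome and had 1 probe set.

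In counts, 2 of 9 genes were at least 2-fold higher and 0 lower with LPS, against 6.64% higher and 13.0% lower of the 12283 genes measured. With 8-Br-cAMP against LPS 3 of 9 were higher and 1 lower, against 6.49% and 5.81% of 12572 genes. The median log2 difference of the 9 was 0.38 with LPS, where that of all genes was -0.21, and 0.45 with 8-Br-cAMP, where that of all genes was 0.05. On the signals as deposited the latter 2 were -0.36 and -0.65. The set was named with earlier results of these arrays known, so the counts are a description.

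**Figure D2:**
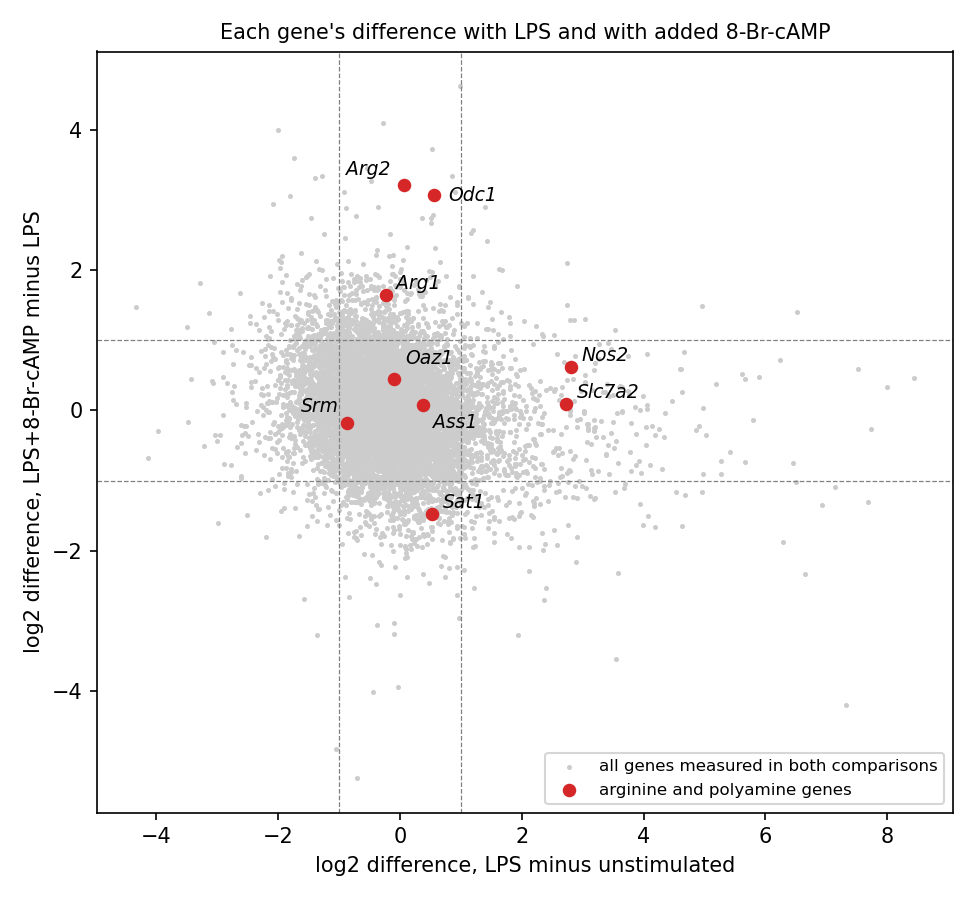
Log2 difference between the LPS and unstimulated arrays (x axis) against that between the LPS+8-Br-cAMP and LPS arrays (y axis); each grey point is a gene measured in both comparisons, red points are the 9 genes named, and dashed lines mark 2-fold. Slc7a2 and Nos2 lie to the right at 2.73 and 2.81, Arg2 and Odc1 at the top at 3.21 and 3.08, and Sat1 at the bottom at -1.48; the axes share the LPS array, so a high LPS reading moves a point right and down.

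Set against unstimulated cells, the LPS+8-Br-cAMP array was higher in 5 of the 9 genes and lower in 1, against 9.36% and 15.8% of 12793 genes. Odc1 differed by 3.64 (12.4-fold), Nos2 by at least 3.43 (at least 10.8-fold), Arg2 by 3.28 (9.73-fold), Slc7a2 by 2.82 (7.09-fold) and Arg1 by 1.42 (2.68-fold). Sat1 lay at -0.95, Oaz1 at 0.36 and Ass1 at 0.45. Thus the BMDC(+LPS+cAMP) culture had both arginases and Nos2 above their unstimulated readings, with the transporter Slc7a2. Of these 5, Arg1 was the one that fell short of 2-fold under an alternative. It lay at 0.33 as deposited, 0.76 under quantile normalization and 0.92 after cyclic loess. This comparison shares an array with each of the others and is no separate evidence.

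Other genes of the pathway were taken from a list of 52, of which 45 had a probe set of their own. With LPS 39 were measured, 3 of them at least 2-fold higher and 6 lower, with a median of -0.23. With 8-Br-cAMP against LPS 39 were measured, 4 at least 2-fold higher and 0 lower, with a median of 0.24. On the signals as deposited the second comparison gave 0 higher and 5 lower of 34 measured. Of all genes, 93 of 10302 were higher at that setting and 2882 lower. The counts on scaled signals can be read against the 6.64%, 13.0%, 6.49% and 5.81% of all genes given above. Between LPS+8-Br-cAMP and unstimulated cells 41 were measured, with 6 higher and 5 lower, against 9.36% and 15.8% of all genes. The higher ones were Gch1 (2.84), Smox (2.74), Slc3a2 (1.57), Dhps (1.36), Ddah2 (at least 1.34) and Azin1 (1.19), and the lower ones Adi1 (-2.77 or lower), Atp13a2 (-1.39), Pts (-1.38), Mri1 (-1.31) and Gamt (-1.05). Dhps turned to -0.89 on the signals as deposited, where its other probe set is the brighter one. As deposited Slc3a2 and Azin1 were also under 2-fold, at 0.47 and 0.10. Ddah2 gave at least 0.25 there, a bound, since its unstimulated signal of 21.8 was under the floor of that setting. Over the scalings Gamt reached -0.71 and Mri1 -0.96, so their places past 2-fold were not stable. The dim second probe set of Mri1 gave -0.05 or lower in this comparison. That is a bound, since it read 33.7 unstimulated, just over the floor, and 22.8 with LPS+8-Br-cAMP. The other probe sets of Atp13a2 gave -2.98 and -0.58.

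Of the transport genes Slc3a2, the heavy chain that pairs with several amino acid transporters, read 980, 2467 and 2906 on the unstimulated, LPS and LPS+8-Br-cAMP arrays. It was higher with LPS by 1.33 and little different with 8-Br-cAMP, at 0.24. Slc7a1, the constitutive arginine transporter CAT1, read 120, 98.7 and 235. It differed by -0.28 with LPS and by 1.25 with 8-Br-cAMP. Of its other probe sets 1 differed by 0.78 with 8-Br-cAMP, under 2-fold. Another gave at least 0.85, a bound, since it read 25.7 with LPS, under the floor, and 58.5 with 8-Br-cAMP. With LPS the former went the other way, at 0.76 (49.9 to 84.2), so the direction of Slc7a1 with LPS depended on the probe set. The latter was under the floor on both of those arrays. Slc7a6 lay just under 2-fold with 8-Br-cAMP, at 0.97.

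Among genes of nitric oxide and of its cofactor tetrahydrobiopterin, Gch1, the rate-limiting enzyme of the cofactor, stood out with LPS. Its scaled signals were 184, 1571 and 1321, a difference of 3.09 with LPS and of -0.25 with 8-Br-cAMP against LPS. The second probe set of Gch1 was higher with LPS by 1.80. The next enzymes of the same route went the other way with LPS, Pts at -1.64 (306 to 98.3) and Spr at -1.20 (85.6 to 37.2). Over the scalings Spr lay between -1.40 and -0.98, so its place past 2-fold was not stable. Spr was close to the floor with LPS and just under 2-fold higher with 8-Br-cAMP, at 0.91. Nos1 and Nos3 stayed near or under the floor on all 3 arrays, between 21.1 and 49.3.

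In polyamine breakdown Smox, spermine oxidase, read 536 unstimulated, 1165 with LPS and 3574 with LPS and 8-Br-cAMP together. Each condition was above the one before, by 1.12 with LPS (0.97 to 1.19 over scalings other than the deposited signals, 0.84 on those) and by 1.62 with 8-Br-cAMP (0.81 as deposited). The dim second probe set of Smox differed by 0.16 with LPS and 2.16 with 8-Br-cAMP. Smox and Sat1, both enzymes that break down or mark polyamines, thus differed in opposite directions with 8-Br-cAMP. Atp13a2, a lysosomal polyamine exporter, was lower with LPS by its 3 probe sets, at -1.26, -2.21 and -1.11.

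Adi1 and Mri1 act in methionine salvage, which recycles the by-product of spermidine and spermine synthesis. Adi1 read 222 unstimulated and lay under the floor on both stimulated arrays, a difference of -2.77 or lower, and its other probe sets were lower too. Mri1 was at -1.07 with LPS, and between -1.36 and -0.80 over the scalings, so its place past 2-fold was not stable. Its dim second probe set read 33.7 unstimulated, just over the floor, and 14.1 with LPS, so its -0.05 or lower is a bound. Enoph1, Apip and Mtap of the same route were at -0.78, -0.51 and -0.20, none past 2-fold, where the median of all genes was -0.21.

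In the control of polyamine synthesis, Azin1, the antizyme inhibitor that frees Odc1 from Oaz1, read 254, 451 and 581. It was higher with LPS by 0.83, under 2-fold, and with LPS+8-Br-cAMP over unstimulated by 1.19. Another probe set gave 0.86 and 0.64 in these comparisons. A dim further probe set of Azin1, under the floor unstimulated, gave at least 1.23 and at least 1.63. Azin2, its dim relative, read 58.7, 40.3 and 90.3 and was 1.16 higher with 8-Br-cAMP than with LPS, which no other of its probe sets could check. Mat2b, a subunit of the enzyme making the methyl donor used in spermidine synthesis, was lower with LPS (486 to 151, -1.69) and higher again with 8-Br-cAMP (412, 1.45). Oaz2 was at -0.48 with LPS and level with 8-Br-cAMP against LPS.

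The urea cycle genes Otc and Cps1 were under the floor on all 3 arrays, and Asl, which follows Ass1, was level at 187, 177 and 217. Of 5 or 6 measured genes of ornithine, proline and creatine metabolism 0 passed 2-fold with LPS or with 8-Br-cAMP against LPS. Aldh18a1, which makes a proline and ornithine precursor, was at 0.83 with 8-Br-cAMP (-0.036 at the lowest of the alternatives), and Oat, the ornithine aminotransferase, was at -0.40. In the hypusine pathway, which uses spermidine to modify the translation factor Eif5a, Eif5a itself read 3311, 3300 and 3001. Dhps, the enzyme that makes the modification, was at 0.87 with 8-Br-cAMP by its chosen probe set and 0.04 by the other.

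**Figure D3:**
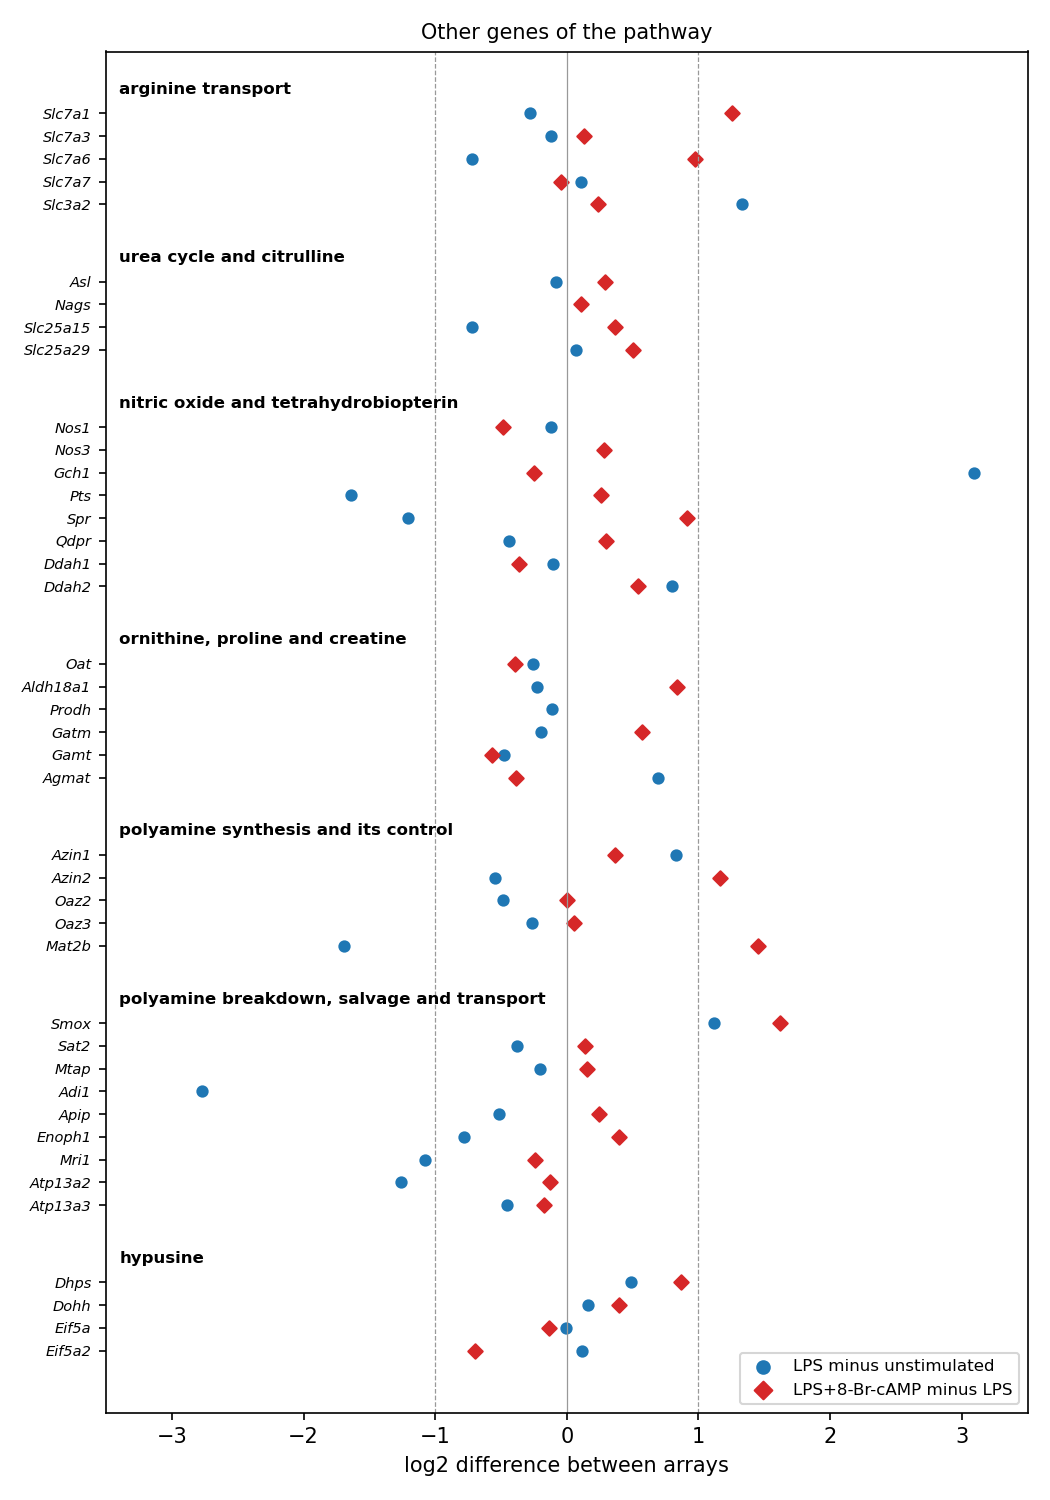
Log2 differences of the other pathway genes, in groups by role; blue circles are LPS minus unstimulated, red diamonds LPS+8-Br-cAMP minus LPS, 1 array per condition, and dashed lines mark 2-fold. Gch1 stands at 3.09 with LPS and Smox at 1.62 with 8-Br-cAMP, while Adi1 at -2.77 is a bound set by the floor.

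The genes of the array nearest in their pair of differences (LPS minus unstimulated, LPS+8-Br-cAMP minus LPS) were found by distance in log2 units among 12474 named genes. Over 3 arrays this is a loose measure of likeness. Nearest to Odc1 were Penk (distance 0.29), Rhou (0.34) and Nr4a1 (0.39), higher with 8-Br-cAMP by 2.79, 3.12 and 2.74. Nearest to Arg2 were Sptssb (0.069), Il10 (0.37) and Nrg1 (0.38). Unlike Arg2 these 3 read less than the floor without 8-Br-cAMP, so their LPS difference of 0 is not a measured one. Their difference with 8-Br-cAMP is a lower bound for the same reason, so their distances rest on the floor. Nearest to Arg1 were Iffo2 (0.041), Smpdl3b (0.049) and Hspa2 (0.055), and nearest to Nos2, placed at its bound, Dusp16 (0.14), Upp1 (0.17) and Adar (0.17).

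The arrays differed in more than the treatment. Deposited medians were 42.6, 33.4 and 19.8 for BMDC(-), BMDC(+LPS) and BMDC(+LPS+cAMP), and 21932 to 22518 of 45037 probe sets were above the floor after scaling. The beta-actin gene Actb read 6688, 8325 and 13444 in scaled signal, in the same order. On the 8-Br-cAMP array it was 0.69 above LPS and 1.01 above unstimulated. Of genes past 2-fold, 33.8% were higher with LPS (17.5% as deposited, 48.5% after cyclic loess), 52.8% with 8-Br-cAMP against LPS (3.13% as deposited) and 37.3% against unstimulated (4.46% and 50.6%). Xist, a marker of female cells, read 1716 on the 8-Br-cAMP array and was under the floor on the others, and the Y-linked Eif2s3y read 1.24 there against 352 and 272. The dendritic cell markers Itgax, Cd74 and the class II genes were bright on all arrays, all 8 of the list being above the floor on each. Their summed scaled signal was 31826, 38996 and 47927 on the unstimulated, LPS and LPS+8-Br-cAMP arrays. With 8-Br-cAMP 6 of the 8 were above LPS and 2 below, 0 of them by 2-fold.

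Granulocyte markers were lower on the 8-Br-cAMP array, the one on which Arg1, Arg2 and Odc1 were high, and markers of other cells went both ways. All 10 granulocyte markers were below LPS there, 7 of them at least 2-fold, and their summed scaled signal was 37035, 40928 and 19928 on the unstimulated, LPS and LPS+8-Br-cAMP arrays. The eosinophil markers summed to 1330, 1408 and 498, with Ccr3 under the floor throughout and 2 of 3 measured ones below LPS. Mast cell and basophil markers summed to 489, 423 and 277, with 3 of 5 below LPS and Kit at 0.68. Macrophage markers summed to 18099, 17847 and 14070, with 4 of 6 below LPS, among them Mertk at -1.65, and Marco at 0.28. B and plasma cell markers summed to 4054, 2155 and 154, mostly Ighm and Jchain, with 4 of 5 below LPS and Cd79b at 0.10. Of 4 T and NK cell markers 2 were above the floor unstimulated and 1 on each other array. The part of these cells, of sex and of brightness in the differences of Arg1, Arg2, Odc1, Smox and Sat1 was not tested. Fewer cells of a type and less RNA per cell cannot be told apart in such bulk samples.

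**Figure D4:**
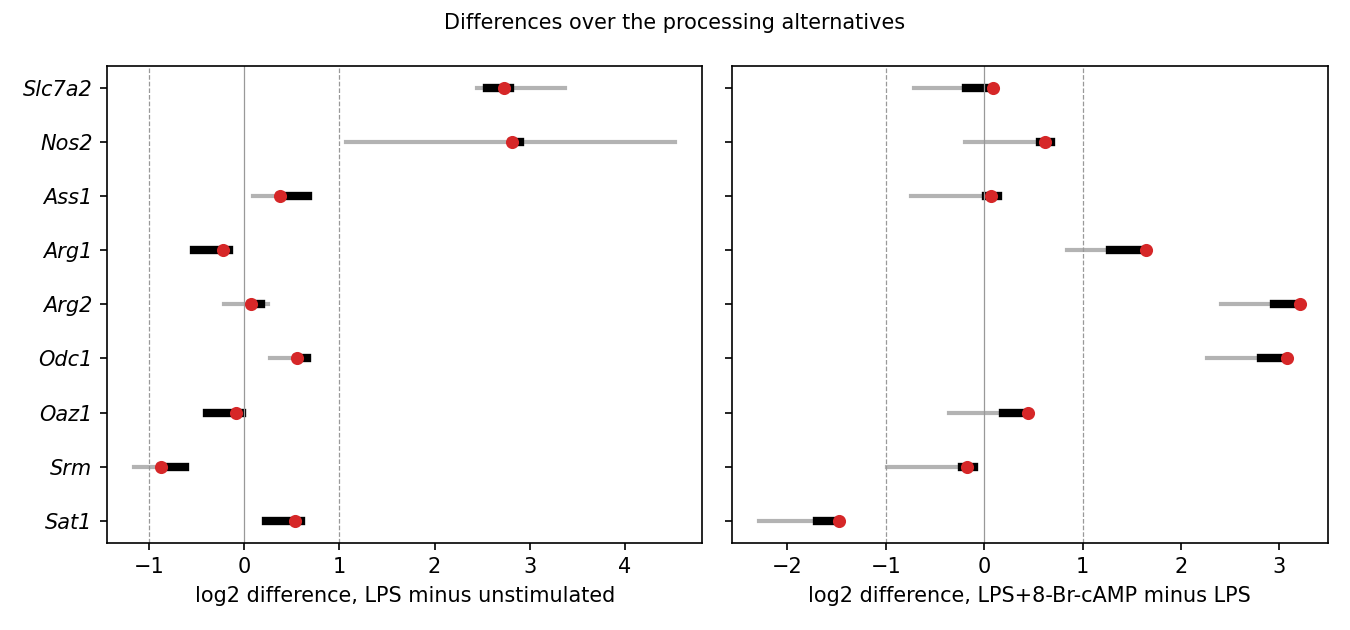
Log2 differences of the 9 genes with LPS (left) and with 8-Br-cAMP against LPS (right); red points are the values given above, thick black bars the range over scaling methods other than the deposited signals, thin grey bars the range over all scalings, floors and rules for choosing or averaging probe sets, and dashed lines mark 2-fold. The bars of Arg2 and Odc1 stay at or above 2.27 with 8-Br-cAMP, though single other probe sets of Odc1 gave 2.12 and 1.68, and the bar of Sat1 stays at or below -1.47, while the grey bar of Arg1 reaches 0.84.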

How the data were processed

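RNA from 3 cultures was hybridised to Affymetrix Mouse 430 2.0 arrays, 1 per condition, as biotinylated cRNA per the labels' protocols. Deposited intensities per probe set were linear and came from MAS5, per the submitters' processing notes. The sources used here give neither its version and settings nor a genome build. The table held 45101 rows, of which 64 control probe sets were left out. GEO's platform annotation gave 1 gene to 34945 probe sets, several to 932 and none to 9160, and 99.4% of those with 1 gene were found in the RefSeq gene table.

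Array factors of 0.763, 0.929 and 1.63 (unstimulated, LPS, LPS+8-Br-cAMP) equalised the means trimmed by 2% at each end. The floor was the highest array median, 32.5 (log2 5.02). A gene counted as measured when above it on at least 1 array compared. The error of 1 probe set was the SD, over 5285 to 5472 genes, of the difference between the log2 differences of the brightest 2 probe sets, divided by the square root of 2. With 1 array per condition there was no test, and the number of arrays limits the precision. Steps were tested on simulated data. All 10 genes of the set, pathway genes past 2-fold (with others needed for a count) and the 3 nearest genes of Nos2, Arg1, Arg2 and Odc1 were named. The genes and lists were chosen with earlier results of these data known. Scaling was also done by quantiles, by medians, by cyclic loess (limma 3.58.1) and not at all; further alternatives were other floors, a pseudocount of 16, other probe set choices, and 1.5-fold and 3-fold thresholds. Python 3.11.15 and numpy 2.4.6 were used.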

Additional observations from a re-analysis of the deposited data

How the results depend on the processing

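Under the 9 alternatives of scaling, floor and probe set, none of the differences of at least 2-fold in the 9 genes changed sign, with Odc1, Oaz1 and Srm not covered by the plain _at choice. Among counts and medians, 153 values stayed near those reported and 33 did not, and the cause was not tested beyond how each setting is built. With the signals as deposited, where the dimmer 8-Br-cAMP array is not brought up, 1 of the 9 genes was lower with LPS, against 2618 of 11871 genes. Against LPS, 8-Br-cAMP then gave a median of -0.36 for the 9 genes and -0.53 for the pathway list. Of 34 measured in the list 0 were higher and 5 lower, against 93 and 2882 of 10302 genes. Against unstimulated, LPS+8-Br-cAMP as deposited gave 2 of the 9 lower with a median of 0.33. Of 39 measured in the list 2 were higher and 18 lower, with a median of -0.88. Of all 11426 genes measured in that comparison 286 were higher and 6125 lower, with a median of -1.08. Quantile normalization gave a median of 0.76 for the 9 genes against unstimulated, and plain _at probe sets alone gave 2.12, over 6 genes. For LPS+8-Br-cAMP against unstimulated the count of the 9 genes lower was 0 with plain _at probe sets, 0 with the pseudocount, 0 at 3-fold and 2 at 1.5-fold. In that comparison the list had 3 lower after cyclic loess, 3 with the floor at the 75th percentile, 8 at 1.5-fold and 1 at 3-fold, and 2 higher at 3-fold. Of all genes 1441 of 12773 were lower after cyclic loess and 839 of 7294 with that floor. The floor at the 25th percentile, which lets in dimmer genes, measured 44 of the list. It gave 5 higher and 10 lower with LPS, against 1839 and 2640 of 16154 genes. With 8-Br-cAMP against LPS it gave 8 higher, against 2326 of 16398 genes. The mean over probe sets gave 2 of the list higher with 8-Br-cAMP against LPS, against 472 of 12664 genes. At 1.5-fold, LPS gave 1 of the 9 genes lower and 6 of the list higher, and 8-Br-cAMP against LPS 8 of the list higher and 1 lower. At 3-fold, LPS gave the list 1 higher and 3 lower, and 8-Br-cAMP against LPS 1 of the list higher and 0 of the 9 genes lower. Shares of all genes at 1.5-fold and 3-fold were not computed.

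The median of all measured genes with LPS was -0.21, -0.06 after cyclic loess and -0.47 as deposited, and with 8-Br-cAMP against LPS 0.05 and -0.65 as deposited. No paired analysis was possible because each condition had 1 array. Single cultures, Nos2 at the floor unstimulated and dim probe sets of Ass1, Azin2 and Spr limit what can be read.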
